A study of Mus musculus with 8 samples.

Results

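Motile cilia beat because an axoneme of microtubule doublets carries dynein motors. The genes described here encode that machinery: the axonemal dynein heavy chains (Dnah) and intermediate chains (Dnai), the factors that assemble dynein arms in the cytoplasm (Dnaaf), the radial spokes (Rsph), the central pair (Hydin, Spag6, Spag16, Spag17), the nexin-dynein regulatory complex (Drc) with its molecular rulers Ccdc39 and Ccdc40, and the cilia and flagella associated proteins (Cfap). Foxj1, a forkhead transcription factor required for motile ciliogenesis, Tmem212, a marker of ependyma, and Armc4, a docking protein of outer dynein arms, complete the list. In the ventricular-subventricular zone the ependymal cells that line the ventricle are multiciliated and move cerebrospinal fluid, and the choroid plexus epithelium beside it also bears cilia. The list took every gene symbol in the feature table that begins with one of those prefixes or equals one of those names, without pseudogenes. It held 78 of the 32285 features. By role there were 33 Cfap genes, 16 named for dynein heavy chains, 8 radial spoke genes, 6 central pair genes, 5 nexin-dynein and ruler genes, 5 dynein assembly factors, 2 dynein intermediate chains and 3 genes named singly. Spag17os and Dnah2os, named as opposite-strand transcripts, entered the list by their prefix.

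The study asked what loss of Tsc2, which encodes a negative regulator of mTORC1, does to neural stem cells and their progeny. Single nuclei were sequenced from the microdissected zone of 8 mice at postnatal day 90, 4 labelled Tsc2 wild (Tsc2 wt/wt) and 4 labelled Tsc2 mutant/mutant (Tsc2 mut/mut), with 1 library per mouse. Nuclei positive for tdTomato, a reporter that the study's mice express after Cre recombination of a Rosa26 CAG-tdTomato allele, were sorted from each mouse. The Cre driver and the time of its induction in these 8 mice are not given in the sources used here. The reporter was not checked in these counts, the kept barcodes also included 856 microglia-like and 124 endothelial-like nuclei, and the numbers of sorted nuclei are not those of the whole tissue.

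Libraries held 11182335 to 36773832 unique molecular identifiers (UMIs). Of the barcodes, 37881 had at least 300 genes. Each was assigned to a class when it carried enough UMIs of that class's marker genes, of which none was among the 78. The gates found 318 ependymal-like nuclei (8 to 82 per mouse) and 576 choroid plexus-like nuclei (1 to 189 per mouse). Another 136 barcodes met more than 1 gate and were set aside, and 32495 met none. Those ungated barcodes were shallow and rich in mitochondrial RNA, with a median of 961 UMIs and 47.4% mitochondrial UMIs, against 2632 UMIs and 12.4% in ependymal-like and 4772 UMIs and 9.27% in choroid plexus-like nuclei. Over all nuclei Tsc2 was at 9.34 CPM (UMIs of the gene divided by all UMIs and scaled to 1000000) in Tsc2 mut/mut mouse 4 and at 11.2 to 13.4 CPM in the other mice. These counts read the 3′ end of the transcript and do not check the deletion. In 3 mice a class was thin. Tsc2 mut/mut mouse 4 had 12 ependymal-like barcodes holding 10032 UMIs with a median mitochondrial share of 40.6%, Tsc2 wt/wt mouse 4 had 8 ependymal-like nuclei, and Tsc2 wt/wt mouse 3 had a single choroid plexus-like nucleus. No pair of libraries shared more than 15 of the kept barcodes.

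The markers fit the names of both classes, but the same genes chose the barcodes, so this does not test the names. Choroid plexus-like nuclei carried all 17 choroid plexus markers, among them transthyretin (Ttr) at 246163 CPM, while the summed choroid plexus markers in ependymal-like nuclei stayed between 288 and 414 CPM across mice. Most ependymal gate genes (Spef2, Ak7, Kif9, Ccdc153) encode cilia proteins themselves. A high level of axoneme genes in that class therefore describes the class more than it tests it. The choroid plexus gate rests on secretory and transport genes such as Ttr, Kl and Folr1, so none of the 78 genes or the other cilia genes named below chose those nuclei. Barcodes that also met the ependymal gate were set aside, however, so the cilia genes of that gate could take nuclei out of the class. Summed oligodendrocyte markers reached 484 to 4884 CPM in ependymal-like and 172 to 617 CPM in choroid plexus-like nuclei, and neural stem cell or astrocyte markers 2203 to 5482 CPM and 44.5 to 1526 CPM. Markers of inhibitory neurons or neuroblasts were at 399 to 5142 CPM in ependymal-like and 0 to 63.0 CPM in choroid plexus-like nuclei, and those of oligodendrocyte progenitors at 698 to 2553 CPM and 12.9 to 48.4 CPM. Microglial markers were at 212 to 863 CPM and 46.8 to 129 CPM, and endothelial markers at 86.6 to 245 CPM and 44.5 to 141 CPM. At the median over mice, markers of inhibitory neurons or neuroblasts were at 2818 CPM in ependymal-like nuclei and 337 CPM in ungated barcodes. Those of oligodendrocyte progenitors were at 2133 and 171 CPM, of microglia at 344 and 266 CPM and of endothelium at 146 and 9.52 CPM. Oligodendrocyte markers (1064 and 2650 CPM) and neural stem cell or astrocyte markers (2845 and 7187 CPM) were lower in ependymal-like nuclei. The source of this RNA and its part in the levels below were not tested. Of the ependymal markers Wdr49, Adgb, Stoml3 and Fam183b were at 0 in choroid plexus-like nuclei, and of the choroid plexus markers Htr2c, Kl, Kcne2, Prlr and Slc4a5 were at 0 in ependymal-like nuclei. Against the names, the ependymal marker Mia was at 55.3 CPM in ependymal-like and 167 CPM in choroid plexus-like nuclei. Dynlrb2, another, was at 185 and 189 CPM. The other ependymal markers and all choroid plexus markers were higher in the class they name.

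The promoters of these genes are shown first because a part of them share the letters of the X-box, the motif bound by RFX factors, which drive ciliary genes. RefSeq promoters on GRCm38.p6, covering 250 bases before to 50 bases after the transcription start, matched 62 of the 78 genes. The X-box was searched on both strands as GTNNCC, then 0 to 3 bases of any kind, then NGNAAC. It occurred in the promoters of 20 of the 62 genes (32.3%) and of 1606 of 27025 genes overall (5.94%). The shorter half-site GTTGCC, which many X-boxes contain, occurred in 24 of the 62 (38.7%) and in 14.1% of all genes. The forkhead core TGTTTAC occurred in 3 of the 62 (4.84%) and in 4.05% of all. A match is a run of letters and was not tested for binding. The 4 promoters below were chosen to stand for different patterns in the nuclei. Hydin and Dnah9 were found almost entirely in ependymal-like nuclei, Drc3 in both classes, and Cfap298 mainly in choroid plexus-like nuclei. Each is given 5′ to 3′ on the strand of the gene, with X-box matches in capitals. The intervals are chr8:110266727-110267026 (plus strand) for Hydin, chr11:66168502-66168801 (minus) for Dnah9, chr11:60353130-60353429 (plus) for Drc3 and chr16:90934800-90935099 (minus) for Cfap298.
Hydin: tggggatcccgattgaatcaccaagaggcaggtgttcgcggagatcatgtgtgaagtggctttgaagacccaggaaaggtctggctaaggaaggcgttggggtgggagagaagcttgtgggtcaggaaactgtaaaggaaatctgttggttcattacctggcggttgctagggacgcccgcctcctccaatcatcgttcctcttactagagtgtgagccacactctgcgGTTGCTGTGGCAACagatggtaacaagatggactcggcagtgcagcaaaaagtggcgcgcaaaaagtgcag
Dnah9: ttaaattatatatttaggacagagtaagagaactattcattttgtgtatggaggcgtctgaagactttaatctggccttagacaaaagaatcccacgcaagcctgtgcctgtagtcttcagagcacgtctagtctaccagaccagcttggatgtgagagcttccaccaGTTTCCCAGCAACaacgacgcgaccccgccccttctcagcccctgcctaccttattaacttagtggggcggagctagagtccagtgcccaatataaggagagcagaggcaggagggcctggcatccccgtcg
Drc3: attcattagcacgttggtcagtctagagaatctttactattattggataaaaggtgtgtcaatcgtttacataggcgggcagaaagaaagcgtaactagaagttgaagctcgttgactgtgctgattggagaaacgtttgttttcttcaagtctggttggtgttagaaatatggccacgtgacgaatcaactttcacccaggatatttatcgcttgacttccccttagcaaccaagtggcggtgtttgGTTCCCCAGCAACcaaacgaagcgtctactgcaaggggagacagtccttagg
Cfap298: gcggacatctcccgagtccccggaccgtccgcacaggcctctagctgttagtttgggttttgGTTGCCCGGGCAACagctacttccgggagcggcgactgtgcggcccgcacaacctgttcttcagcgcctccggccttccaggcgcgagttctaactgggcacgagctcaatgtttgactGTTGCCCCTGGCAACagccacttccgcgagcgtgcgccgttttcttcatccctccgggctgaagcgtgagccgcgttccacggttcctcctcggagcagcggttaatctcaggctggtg
Counted from the start site, the match in Hydin is centred at −14, that of Dnah9 at −75.5 and that of Drc3 at 4.5. Cfap298 holds 2 matching stretches, centred at −181 and −61.5, and each matches on either strand. The other genes with a match were Cfap206, Cfap44, Cfap45, Cfap58, Cfap61, Cfap99, Dnaaf2, Dnaaf5, Dnah17, Dnaic1, Dnaic2, Rsph14, Rsph3b, Spag16, Spag17 and Spag6l.

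Ependymal-like nuclei carried by far the highest level of the 78 genes together. Their summed level, given as CPM of the class, was 18740 in the lowest mouse, 36775 at the median and 46550 in the highest. In choroid plexus-like nuclei it was 1742, 1926 and 2441 CPM. Apart from barcodes that met more than 1 gate, the other classes lay lower still, with medians over mice of 518 CPM in inhibitory neuron- or neuroblast-like nuclei (highest mouse 1208, 183 nuclei), 338 in oligodendrocyte progenitor-like nuclei (highest mouse 1104, 45 nuclei), 437 in neural stem cell- or astrocyte-like, 329 in microglia-like, 282 in endothelial-like and 190 in oligodendrocyte-like nuclei and 216 in ungated barcodes. The lowest choroid plexus-like value was above the highest value of each of these classes and below the lowest ependymal-like value. The lowest ependymal-like value was that of Tsc2 mut/mut mouse 4, and the next lowest was 31144 CPM. The 20000 barcodes with the fewest UMIs in each library, taken here to hold free RNA, carried 208 to 663 CPM of the same genes.

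**Figure D1:**
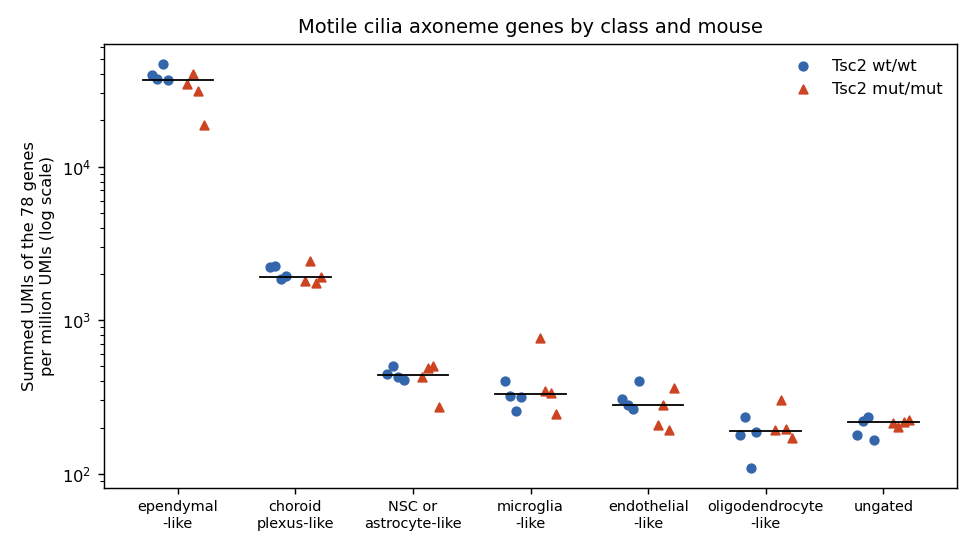
Summed level of the 78 motile cilia axoneme genes in each mouse, as CPM of the class on a log scale, for 7 classes of barcodes. Circles are Tsc2 wt/wt and triangles Tsc2 mut/mut mice, and the bar is the median of 8 mice: 36775 in ependymal-like, 1926 in choroid plexus-like and below 500 in the other classes drawn. The thinly filled neuronal and oligodendrocyte progenitor classes are not drawn.

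Single nuclei showed the same order. When each nucleus was thinned to 500 UMIs, ependymal-like nuclei had a median of 13 of the 78 genes with a UMI (range 0 to 22, 316 nuclei). Choroid plexus-like nuclei had a median of 1 (range 0 to 5, 575 nuclei), and 53.9% of them had at least 1 of the genes. In microglia-like nuclei, which lack motile cilia, 14.8% of 846 thinned nuclei had 1 or more, and in oligodendrocyte-like nuclei 10.5% of 676. At full depth the median number of genes detected was 33 in ependymal-like and 6 in choroid plexus-like nuclei. Outside the gated class few barcodes reached the level of most ependymal-like nuclei. Of 32495 ungated barcodes, 2 carried a share of axoneme UMIs at or above the 5th percentile of ependymal-like nuclei, as did 14 of the 136 barcodes that met more than 1 gate and 0 of 576 choroid plexus-like nuclei. The lowest ependymal-like nucleus had 31.6 per 10000 UMIs. At or above it lay 86 ungated barcodes, 52 choroid plexus-like nuclei and 21 barcodes that met more than 1 gate. Neither the ungated nor the choroid plexus-like barcodes include any that met the ependymal gate, so their counts are in part set by the gates.

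Dynein heavy chains, the motors of the dynein arms, made up a large part of the ependymal signal. Their summed level was 5383 to 14328 CPM across mice. Dnah12, an inner arm heavy chain, was at 2128 CPM in the lowest mouse, 2617 at the median and 3872 in the highest. Dnah9, an outer arm heavy chain, was at 199, 1390 and 1654 CPM, Dnah11, another outer arm chain, at 299, 1078 and 1798 CPM, and Dnah5, the third of these, at 299, 734 and 1007 CPM. For these last 3 the lowest mouse was Tsc2 mut/mut mouse 4. Not every heavy chain was present. Dnah17 had 0 UMIs among the 868616 of the ependymal-like nuclei, which allows up to 3.45 CPM, and Dnah8, a testis-enriched chain, had 3 UMIs. Dnah7a, Dnah7b and Dnah7c are close copies of each other, so their separate levels are uncertain.

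Central pair genes followed the same pattern. Spag16 was at 997 CPM in the lowest mouse, 2992 at the median and 3439 in the highest, Hydin at 299, 955 and 1388 CPM and Spag17 at 845, 975 and 1439 CPM. Spag6, by contrast, had 4 UMIs in all ependymal-like nuclei while its close copy Spag6l had 496, and the division of reads between the pair is uncertain. Of the genes named singly, Tmem212 was at 698, 1128 and 1535 CPM, Armc4 at 498, 620 and 853 CPM and Foxj1 at 0, 126 and 154 CPM. The mouse without a Foxj1 UMI in this class was again Tsc2 mut/mut mouse 4. Ccdc39, a ruler that sets the spacing of dynein arms, was at 144, 357 and 544 CPM and Ccdc40, its partner, at 0, 106 and 252 CPM. Dnaaf1, a cytoplasmic assembly factor, was low, at 0, 32.0 and 46.1 CPM. In total 8 of the 78 genes had fewer than 10 UMIs in ependymal-like nuclei: Rsph6a, Cfap97d1, Dnah2os and Dnah17 with 0, Spag17os, Dnah8, Spag6 and Dnaaf2.

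Ependymal-like nuclei were compared with all other kept barcodes of the same mouse, called all other nuclei here. UMIs were summed per mouse and tested with edgeR's quasi-likelihood test. This reference included barcodes that met more than 1 gate. It also included the ungated barcodes, which held 37160051 UMIs and had a median mitochondrial share of 47.4%. Of the 78 genes 56 passed the filter on low counts, and 53 were called higher and 1 lower, beside 24.5% of the 10054 genes tested that were called higher and 4133 of them called lower. Without the filter 66 of the 78 were called higher, beside 13.0% of 23800 genes. The median log2 fold change of all genes was −0.42 with the scaling used here, 0.56 with library totals and −0.92 with DESeq2, and the values below should be read against that shift. Dnah12 had a log2 fold change of 8.19 ± 0.41 (SE, adjusted p = 1.72e-88), Dnah10 of 7.90 ± 0.28 (adjusted p = 1.93e-175), Tmem212 of 7.78 ± 0.34 (adjusted p = 3.64e-116) and Cfap299 of 7.73 ± 0.42 (adjusted p = 1.79e-72). Spag17, Hydin and Spag16 had values of 7.55, 7.47 and 6.58, Armc4 7.26, Dnah3 7.23, Dnah5 7.20, Cfap61 7.17, Dnah11 7.14, Cfap43 and Dnah9 6.89. Under the alternatives Dnah12 lay between 6.36 and 9.32 and Spag17 between 5.89 and 8.68. Further genes called higher were Dnaaf3 at 5.58, Rsph10b at 5.05, Ccdc39 and Drc3 at 5.00, Rsph4a at 4.78, Drc1 at 4.62, Dnaic1 at 4.09, Foxj1 at 4.01 and Rsph3b at 3.28. Reads of Rsph10b, Dnaaf3, Drc1, Cfap299 and Cfap43 may include those of a gene that overlaps each on the same strand. The gene called lower was Cfap298, a dynein assembly protein, which was lower in ependymal-like nuclei (−1.56 ± 0.41, adjusted p = 3.20e-04). With library totals its value was −0.53 and the adjusted p 0.28. Radial spoke gene Rsph9 was nearest the threshold among those called higher, at 0.72 (adjusted p = 0.0487). It too was higher in choroid plexus-like nuclei than in nuclei of neither class (4.18), and the former are part of its reference here.

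The axoneme genes with most UMIs in choroid plexus-like nuclei were not those of ependymal-like nuclei, though some had similar levels in both classes. Rsph1, a radial spoke protein, was at 186 CPM in the lowest mouse, 238 at the median and 368 in the highest, Cfap126, a protein of basal bodies and axonemes, at 132, 228 and 296 CPM, and Cfap298 at 123, 202 and 267 CPM. Drc7, of the nexin-dynein regulatory complex, was at 44.5, 136 and 175 CPM and Rsph9, another spoke protein, at 69.8, 90.4 and 176 CPM. Foxj1 was at 20.8, 39.4 and 87.0 CPM. Rsph1, Cfap126, Cfap36, Cfap298 and Drc7 together gave 50.2% of the axoneme UMIs of the class. In ependymal-like nuclei the 5 genes with most UMIs were others (Cfap299, Spag16, Dnah12, Cfap54 and Dnah9) and gave 34.8%. Thinned to 500 UMIs, 8.70% of choroid plexus-like nuclei had a Cfap126 UMI, 8.0% a Rsph1 UMI and 7.65% a Cfap298 UMI. The same shares in microglia-like nuclei were 0.236%, 0.00% and 0.355%, and in ependymal-like nuclei 1.58%, 7.28% and 0.316%. Drc7 had a UMI in 4.52% of choroid plexus-like and 6.96% of ependymal-like nuclei. Cfap36 had a UMI in 6.96% of choroid plexus-like, 10.1% of ependymal-like and 2.48% of microglia-like nuclei. In the barcodes taken as free RNA, Rsph1 was at 2.25 CPM, Cfap126 at 2.41 CPM, Cfap298 at 14.1 CPM, Drc7 at 1.11 CPM and Cfap36 at 51.1 CPM.

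Dynein heavy chains and central pair genes had few UMIs in these nuclei. Dnah12 had 0 UMIs among 3241529, which allows up to 0.925 CPM, and Dnah3, Dnah5, Dnah7c, Dnah10, Dnah14, Dnah17, Tmem212 and Ccdc40 had 1 each. Spag17 had 4 UMIs and Hydin 12, and Hydin lay between 0 and 8.34 CPM in the mice. Spag16 was the highest of the central pair genes, with 135 UMIs and a median of 41.4 CPM. In all 27 of the 78 genes had fewer than 10 UMIs in choroid plexus-like nuclei and 6 had none.

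Choroid plexus-like nuclei were then compared with the nuclei in neither ciliated class. That reference again included the ungated barcodes and those that met more than 1 gate. Of the 78 genes 29 passed the filter, and 26 were called higher and 2 lower, beside 30% of 9559 genes called higher and 4328 of them called lower. Without the filter 42 genes were called higher, beside 13.6% of 23568. In the same fit 11 of the 77 axoneme genes tested were called lower, beside 7993 of all genes. The median over all genes was −0.37, and −1.12 with DESeq2. The values furthest above it were those of Rsph1 (7.08 ± 0.25, adjusted p = 1.38e-68), Drc7 (7.05 ± 0.27, adjusted p = 9.64e-63), Cfap126 (6.41 ± 0.23, adjusted p = 1.72e-65), Cfap53 (5.48 ± 0.34) and Foxj1 (5.01 ± 0.29, adjusted p = 8.17e-39). Rsph9 and Rsph10b were at 4.18 and 4.17, Cfap298 at 3.66, Drc3 at 3.39, Dnah6 at 2.27, Dnaic2 at 2.27, Ccdc39 at 2.11, Dnah11 at 1.89, Spag16 at 1.74, Dnah9 at 1.62 and Dnaic1 at 0.78. The call of Dnah9 was lost in 2 of 16 alternatives (highest adjusted p 0.268), and that of Dnaic1 in 4 of 18 (highest adjusted p 0.906, with DESeq2), with a reversed value of −1.85 without the deepest 5% of barcodes. Among barcodes with under 20% mitochondrial UMIs 15 of 20 genes tested were called higher and Spag16 was at 0.15 (adjusted p = 0.69). The share of all genes called under that setting is not given here. With the filter the genes called lower were Cfap74 (−2.36 ± 0.33, adjusted p = 7.37e-11) and Dnah7b (−0.72 ± 0.33, adjusted p = 0.0398). Without the deepest 5% of barcodes, which left 1 Tsc2 wt/wt mouse with no nucleus of the class, 4 of 12 were called higher, beside 337 of 9417 genes. Without Tsc2 wt/wt mouse 3, which gave the single nucleus, 35 of 38 genes tested were called higher, beside 3153 of 9857 genes. Dnah7b was at −0.65 there (adjusted p = 0.145). The call of Dnah7b was kept in 9 of 19 alternatives, lost in 9 and reversed in 1 (highest adjusted p 0.95).

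Cfap74 and Dnah7b had a level outside the ciliated classes. Cfap74, a central apparatus protein, took 22.6% of the axoneme UMIs of microglia-like nuclei, at 46.6 CPM in the lowest mouse, 90.3 at the median and 184 in the highest. It was at 17.1, 25.5 and 48.9 CPM in ungated barcodes and at 0, 7.94 and 19.4 CPM in choroid plexus-like nuclei. Dnah7b took 15.8% of those UMIs in neural stem cell- or astrocyte-like nuclei, at 24.9, 69.6 and 121 CPM. Both remained far higher in ependymal-like nuclei, at medians of 499 and 657 CPM. In ungated barcodes Cfap36 had the most UMIs of the list, at 39.9, 47.8 and 54.0 CPM.

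By pooled level 68 of the 78 genes were higher in ependymal-like nuclei, 41 of them in 8 of 8 mice, and 8 were higher in choroid plexus-like nuclei. The same shares over all genes are not given here. Other genes leaned the same way when long. Their median log2 ratio of pooled CPM plus 1 was −0.28 under 30 kb, 1.66 from 30 to 100 kb and 3.25 at 100 kb or more. Of the 78 genes 49 passed the filter. In ependymal-like nuclei 43 were called higher, beside 45.3% of 2236 genes tested, and 4 were called lower, beside 45.0%. A gene could pass the filter through its level in 1 class alone. Without the filter 59 of 76 axoneme genes were called higher and 6 lower, beside 4155 and 3618 of 18059 genes. All 11 dynein heavy chains and all 4 central pair genes that were tested were higher in ependymal-like nuclei. Of 4 radial spoke genes tested 2 were higher and 2 lower. The median over all genes was 0.03, and it was −1.14 without Tsc2 wt/wt mouse 2, −1.51 without Tsc2 wt/wt mouse 3 and 0.93 without Tsc2 mut/mut mouse 4. Summed over the mice, dynein heavy chains were 159 times as high in ependymal-like nuclei and central pair genes 70.1 times, while nexin-dynein and ruler genes were 5.95 times and radial spoke genes 2.06 times as high.

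**Figure D2:**
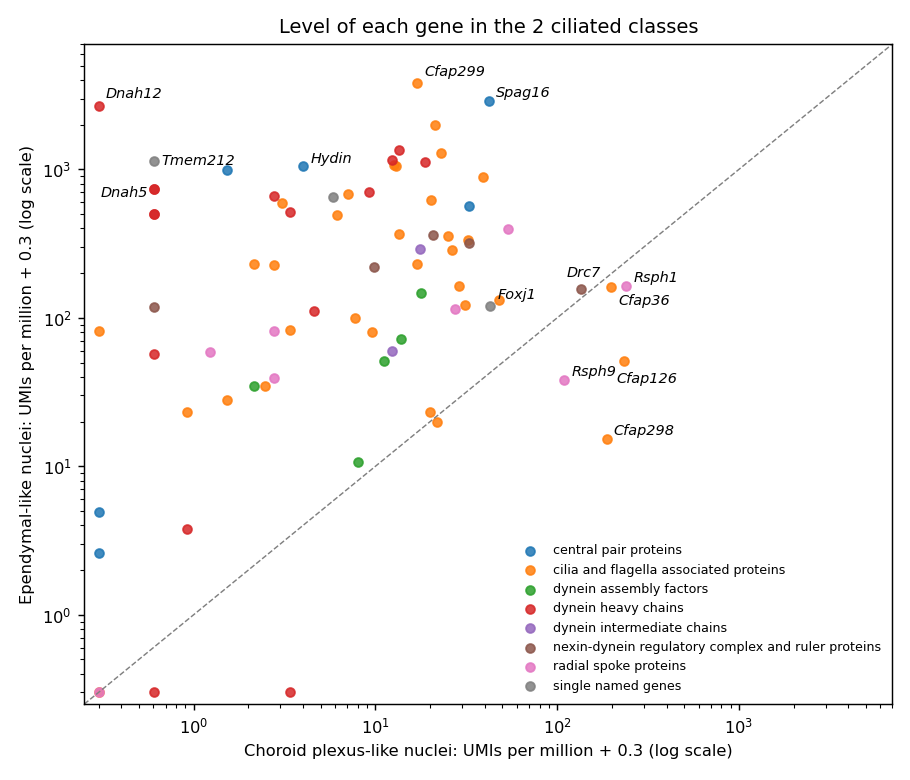
Level of each of the 78 genes in choroid plexus-like nuclei (x axis) and ependymal-like nuclei (y axis), as CPM plus 0.3 on log scales, with UMIs of the 8 mice pooled and colours for the gene families. Most points lie above the dashed line of equal levels, with Dnah12 at 0 UMIs in choroid plexus-like nuclei, and Cfap298, Cfap126, Rsph9, Rsph1 and Cfap36 are among those below it.

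Dnah12 was at least 2905-fold higher in ependymal-like nuclei, taking 3 UMIs over the choroid plexus-like class as the floor. For Tmem212 the ratio of pooled levels was 3698 (95% counting interval 662 to 146218), for Dnah3 2399.6 (429 to 94923) and for Dnah5 2373 (424 to 93892). These intervals cover counting error and not the spread between mice. Spag17 was 808 times as high (314 to 2972) and Hydin 284 times (162 to 552). Their fitted log2 fold changes were 8.89 ± 0.61 (adjusted p = 1.89e-45) and 7.63 ± 0.58 (adjusted p = 1.78e-38). Cfap299 was at 7.44, Cfap47 at 7.13, Armc4 at 6.59, Cfap100 at 6.30, Dnah9 at 6.27, Dnah11 at 6.09, Spag16 at 5.81, Dnaic1 at 3.92, Ccdc39 at 3.76, Dnaaf3 at 2.93, Rsph10b at 2.62 and Rsph4a at 1.85. Foxj1 was at 1.31 ± 0.35 (adjusted p = 2.04e-04). Without Tsc2 wt/wt mouse 2 its value was 0.17 (adjusted p = 0.614), where the median over all genes was −1.14. Without Tsc2 wt/wt mouse 3 it was 0.14 (adjusted p = 0.668), where that median was −1.51. The median was 0.03 in the main fit, so these values should be read against that shift.

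The pooled level of Cfap298 in ependymal-like nuclei was 0.0801 of that in choroid plexus-like nuclei (0.0424 to 0.138), with a log2 fold change of −3.59 ± 0.45 (adjusted p = 5.08e-15). Its groups did not overlap, since the highest ependymal-like mouse was at 99.7 CPM, a single UMI in Tsc2 mut/mut mouse 4, and the lowest choroid plexus-like mouse at 123 CPM. Cfap126 was at 0, 40.1 and 77.2 CPM in ependymal-like nuclei and lay below its choroid plexus-like level in 8 of 8 mice (−2.18 ± 0.38, adjusted p = 2.53e-08). Rsph9 was at 0, 30.7 and 56.4 CPM in ependymal-like nuclei, again with no overlap (−1.6 ± 0.38, adjusted p = 3.77e-05). Without Tsc2 wt/wt mouse 2 or 3 its value was −2.78 or −2.81, where the median over all genes was −1.14 or −1.51. Rsph1, at 0, 160 and 293 CPM, overlapped between the classes (−0.75 ± 0.37, adjusted p = 0.0442). Its value was −0.23 (adjusted p = 0.42) with library totals and −1.92 (adjusted p = 6.98e-11) without Tsc2 wt/wt mouse 3. The median over all genes was 0.51 in the former fit and −1.51 in the latter. Drc7 did not pass the test (0.02 ± 0.35, adjusted p = 0.95), with medians of 156 and 136 CPM.

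**Figure D3:**
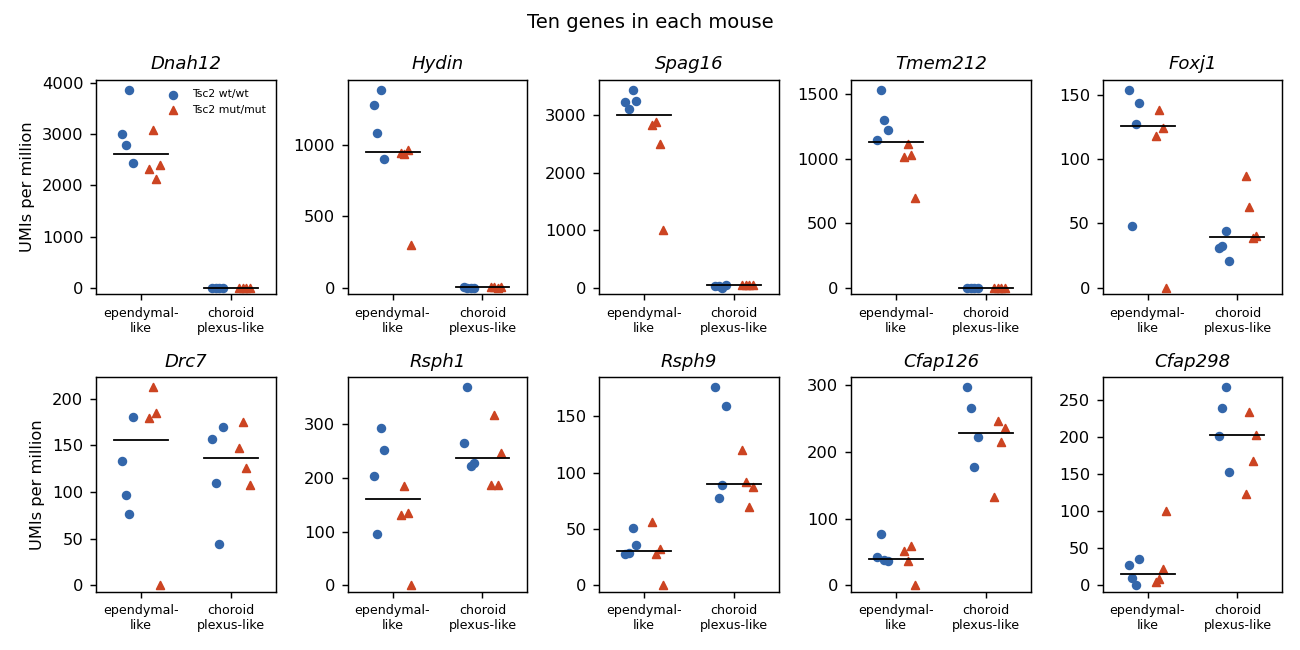
CPM of 10 of the genes in ependymal-like and choroid plexus-like nuclei of each mouse, with a linear axis of its own for each gene. Circles are Tsc2 wt/wt mice, triangles Tsc2 mut/mut mice and bars the median of 8 mice. Dnah12, Hydin, Spag16 and Tmem212 are near 0 in choroid plexus-like nuclei, and Rsph9, Cfap126 and Cfap298 are higher there, with no overlap for each of these 3.

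The ratio between the classes went with the length of the gene. Over the 72 genes with 10 or more UMIs in the 2 classes together, Spearman's rho between the annotated span and the log2 ratio (of CPM plus 1) was 0.76, as a description across genes that share the same libraries. The 12263 other genes, treated the same way, had a rho of 0.58. Of the 21 axoneme genes spanning under 30 kb, 6 were higher in choroid plexus-like nuclei, and the median log2 ratio was 1.47, where 6542 other genes of that span had −0.28. The 22 genes spanning 100 kb or more had a median of 6.81, and none was below 4.69, where 2010 other genes had 3.25. Cfap298 spans 9.31 kb, Cfap126 13.1 kb, Rsph9 22.2 kb and Rsph1 22.4 kb, whereas Dnah12 spans 198 kb and Hydin 343 kb. Tmem212, with 30.3 kb, had a log2 ratio of 9.77, the highest of the genes from 30 to 100 kb. Whether reads in introns were counted is not given in the sources used here, and the part of gene length in the differences between the classes was not tested.

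**Figure D4:**
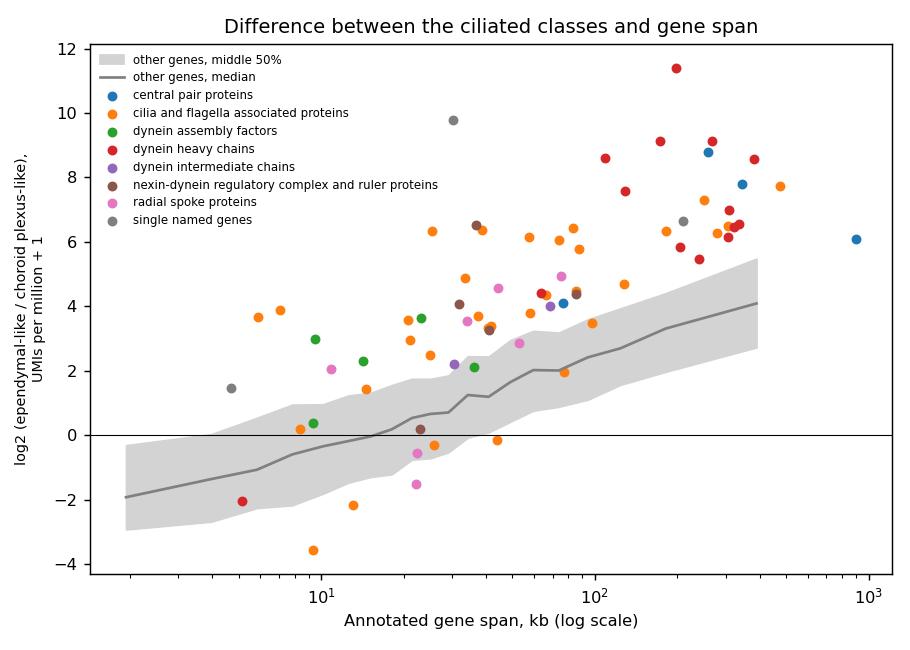
log2 ratio of ependymal-like over choroid plexus-like levels (CPM plus 1, mice pooled) against annotated gene span in kb on a log scale, for the 72 axoneme genes with 10 or more UMIs in the 2 classes together (points, coloured by family). The grey line and band are the median and middle 50% of the other genes in 20 bins of span. The ratio is higher for longer genes in both sets, with rho 0.76 over the axoneme genes and 0.58 over the others.

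Genes that act with these were followed in 3 further lists, whose genes named here were chosen after their values were seen. The median log2 fold changes of all genes given above are the values to read them against. Of 41 other genes of axonemes and dynein assembly, 28 were tested between ependymal-like and all other nuclei, and 27 were higher and 1 lower. Between choroid plexus-like nuclei and the nuclei in neither class, 13 of 15 tested were higher and 2 lower. Pifo (7.34), Ccdc113 (7.01), a protein of motile cilia and centriolar satellites, and Tekt1 (6.33), a filament protein of doublet microtubules, were among those higher. In the comparison of the ciliated classes Pifo (−1.31) and Ccdc113 (−0.77) were called lower in ependymal-like nuclei, while Tekt1 did not pass the test (−0.01, adjusted p = 0.979). Dynll1, a light chain shared with cytoplasmic dynein, was the third called lower there (−3.57), and 17 of 21 genes tested were called higher. Ccdc180 and Fbxl13 were at 8.42 and 7.71 in that comparison. Of 34 intraflagellar transport and BBSome genes, which also serve primary cilia, 26 of 33 tested were higher and 2 lower in ependymal-like nuclei (median 2.15). In choroid plexus-like nuclei 19 of 30 tested were higher and 1 lower (median 0.94). Of 15 regulators of multiciliation and RFX factors 6 were tested in the first comparison and 4 were higher. Rfx3 was at 1325 CPM in ependymal-like and 26.5 CPM in choroid plexus-like nuclei (5.21 between them) and Rfx2 at 304 and 5.86 CPM (5.23). Gmnc, which encodes GEMC1, an early inducer of multiciliated fate, was at 79.4 CPM in ependymal-like and 22.5 CPM in choroid plexus-like nuclei, and was called higher in the latter than in the nuclei in neither class (4.44). In that comparison 7 regulators were tested, and Gmnc was the 1 called higher, while Rfx3 (−1.80, adjusted p = 1.66e-12) and Rfx4 (−5.13, adjusted p = 5.93e-27) were the 2 called lower. Myb had 87 UMIs in ependymal-like nuclei and 0 in choroid plexus-like nuclei.

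No axoneme gene was called in the comparison of genotypes. In ependymal-like nuclei 52 of the 78 genes were tested, with 0 called, beside 0.0% of 2109 genes (edgeR). At an unadjusted p under 0.05 there were 2 of the 52 genes and 154 of all genes, and DESeq2 called 11 genes, of which 0 were on the list, while it left 1686 genes without an adjusted p. Dnah11 was 1043 to 1798 CPM in Tsc2 wt/wt and 299 to 1088 CPM in Tsc2 mut/mut mice, with a log2 fold change (mut/mut over wt/wt) of −0.60 ± 0.26 (adjusted p = 0.64). Drc7 was at 133, 96.5, 76.4 and 180 CPM in Tsc2 wt/wt mice 1 to 4 and at 179, 212, 184 and 0 CPM in Tsc2 mut/mut mice (0.74 ± 0.35, adjusted p = 0.659). Dnah2 (−0.46), Cfap299 (−0.49) and Hydin (−0.34) were the others with the smallest p. Their adjusted p-values were 0.745, 0.757 and 0.815. Leaving out Tsc2 mut/mut mouse 4 or any other mouse called 0 of the axoneme genes, and without Tsc2 wt/wt mouse 2 there were 105 calls among all genes.

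A group of genes was lower in every Tsc2 mut/mut mouse than in every Tsc2 wt/wt mouse. These were Spag16, Cfap61, Tmem212, Dnaic1, Cfap299, Dnah6 and Dnah5, 7 of the 52, and none of the 52 was higher in every mutant mouse. Over the 2109 genes tested, 5.17% were lower in that sense and 1.33% higher. Spag16 was at 3220, 3099, 3439 and 3236 CPM in the Tsc2 wt/wt mice and at 2822, 2885, 2496 and 997 CPM in the Tsc2 mut/mut mice (−0.33 ± 0.29, adjusted p = 0.825). Tmem212 was at 1141, 1535, 1299 and 1223 CPM against 1011, 1115, 1029 and 698 CPM (−0.29 ± 0.24, adjusted p = 0.819). These levels are shares of the class total, whereas the fit also scales for composition. The genes in this group were chosen after their values were seen. Of the 21 axoneme genes of 100 kb or more, 20 had a log2 fold change below 0, and the rho between span and fold change was −0.48 over the 52 genes and −0.31 over 2056 others. Of the other genes of that length 59.8% were below 0. Without the mice under 30000 UMIs in the class the rho was −0.48 over 54 genes and −0.26 over 2467 others. Median UMIs per ependymal-like nucleus were 3301 to 3788 in Tsc2 wt/wt and 835 to 2648 in Tsc2 mut/mut mice, and median mitochondrial shares were 9.23% to 15.5% and 11.8% to 40.6%. The part of depth and nuclear quality in these differences was not tested.

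**Figure D5:**
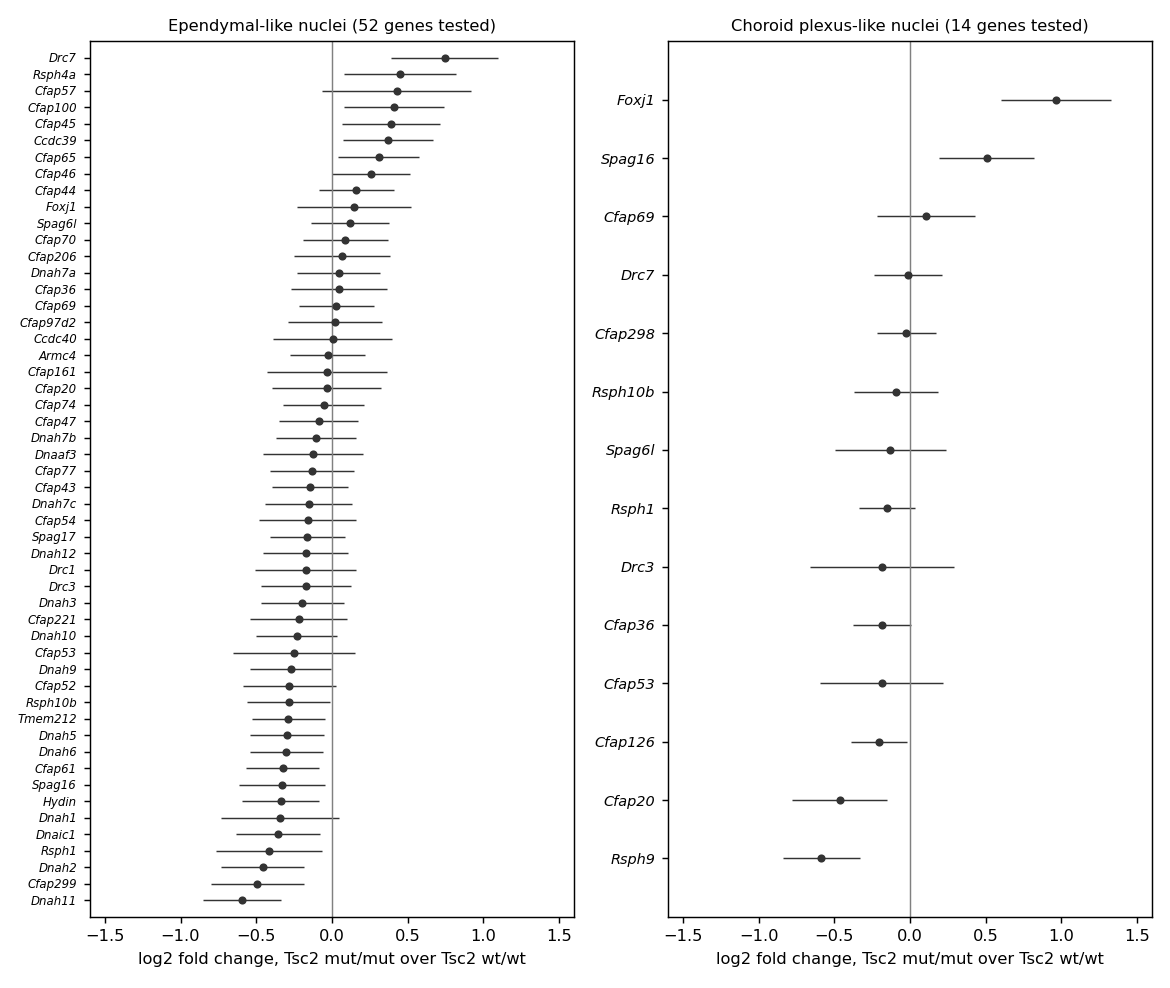
log2 fold change, Tsc2 mut/mut over Tsc2 wt/wt, with its standard error for each axoneme gene tested in ependymal-like nuclei (52 genes) and choroid plexus-like nuclei (14 genes), from 4 mice per genotype. The standard error is derived from the F statistic of the test. None passed the test. In ependymal-like nuclei Drc7 is highest at 0.74 and Dnah11 lowest at −0.60, and in choroid plexus-like nuclei Foxj1 is highest at 0.96.

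In choroid plexus-like nuclei 14 of the 78 genes were tested and 0 called, beside 0.699% of 3146 genes. At an unadjusted p under 0.05 there were 2 of the 14 and 452 of the 3146 genes. Foxj1 was at 31.0, 32.3, 44.5 and 20.8 CPM in Tsc2 wt/wt mice 1 to 4 and at 87.0, 62.6, 38.5 and 40.2 CPM in Tsc2 mut/mut mice. The groups overlapped through Tsc2 wt/wt mouse 3, whose value is 1 UMI. The log2 fold change was 0.96 ± 0.36 (adjusted p = 0.221). Of the 14 genes 0 were lower in every Tsc2 mut/mut mouse, beside 4.13% of all genes tested, and 0 were higher in every one, beside 1.59%. Of the genes not tested, Cfap54 (0 to 17.3 CPM in Tsc2 wt/wt and 17.4 to 36.0 CPM in Tsc2 mut/mut mice) and Dnaaf4 (0 to 12.1 and 12.5 to 18 CPM) were higher in every Tsc2 mut/mut mouse, and they are named after their values were seen. The share of all untested genes that separate in this way is not given here, so these 2 are not read as a result. In Tsc2 wt/wt mouse 3 a single UMI is worth 44.5 CPM. Rsph9 was at −0.59 ± 0.26 (adjusted p = 0.284), Spag16 at 0.51 ± 0.31, Cfap20 at −0.47 ± 0.31 and Cfap126 at −0.21 ± 0.19. Rsph1, which lies 6.62 Mb from Tsc2 on chromosome 17, was at −0.15 ± 0.18 there (adjusted p = 0.762). Over all nuclei 66 of the 78 genes were tested with 0 called, beside 0.0154% of 13024 genes, and in the nuclei in neither ciliated class 45 were tested with 0 called, beside 0.016% of 12518. A test of whether the genotype effect differed between the ciliated classes called 0 of 60 axoneme genes, but in simulated data it recovered 2% of 4-fold changes, so a count of 0 there carries little weight. In the single-class genotype tests simulated 4-fold changes were recovered in 92% of cases for ependymal-like and 96.5% for choroid plexus-like nuclei, and smaller changes were not simulated.

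The share of ciliated nuclei overlapped between the genotypes. Ependymal-like nuclei were 0.921% ± 0.772 (SD, n = 4) of kept barcodes in Tsc2 wt/wt and 1.00% ± 0.610 (n = 4) in Tsc2 mut/mut mice (two-sided exact permutation test over 70 assignments, p = 0.914). Choroid plexus-like nuclei were 0.949% ± 1.05 and 2.14% ± 1.63 (exact permutation test, p = 0.314). That difference of 1.19 percentage points was 0.391 without Tsc2 mut/mut mouse 4 and 0.362 without the deepest 5% of barcodes (exact permutation p = 0.0571). The smallest p this design allows is 0.0286. Shares of sorted nuclei depend on the tdTomato gate, the dissection and the many ungated barcodes in the denominator.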

How the data were processed

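Per the labels and the study's methods, the authors sorted tdTomato-positive nuclei, made 1 10x Genomics 3′ library per mouse and aligned it with Cell Ranger 7.0.1 to GRCm38 (mm10), and they used Seurat 4 afterwards. The deposited values are raw UMI counts per gene and barcode, with the number of barcodes set to 60000 per library, so most barcodes hold free RNA.

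Barcodes with at least 300 genes were kept. A barcode entered a class with at least 4 of its marker genes, at least 40 marker UMIs per 10000 and at least 3 times the share expected from the 20000 barcodes with fewest UMIs. No doublet caller was run, the sort gated doublets out per the methods, and barcodes meeting more than 1 gate were set aside. UMIs were summed per mouse and class and tested with edgeR 4.0.16 (quasi-likelihood, TMM, filterByExpr, Benjamini-Hochberg adjustment over all genes tested, threshold 0.05) in R 4.3.3. Mouse was a block in comparisons of classes and genotype was tested over 4 mice against 4. Shares of nuclei were compared by exact permutation in scipy 1.17.1. The SE of a fold change was not fitted separately. It is the size of the fold change divided by the square root of the test's F statistic. Scripts were tested on simulated data. CPM are UMIs over the class total, counting intervals (95%) and floors (3 UMIs over the class) cover counting error only, and gene spans come from GENCODE on GRCm38.

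Genes were named by rule: in each family the 3 with the largest fold change among those called, all called the other way, a standing list (Foxj1, Hydin, Tmem212, Ccdc39, Ccdc40, Armc4, Spag16, Spag17, Dnah5, Dnah9, Dnah11, Dnaaf1), for genotype the 5 with the smallest p, and genes within 10 Mb of Tsc2. Members and lists were chosen with earlier results of these data known. Alternatives changed the scaling, the tool, the filters, the gates and the mice included. P-values by genotype measure the spread between mice, 1 library each. In comparisons of classes mouse was a block, so p-values there measure how the difference between classes varied from mouse to mouse. They also rest on the count model of the test. The smallest of them should therefore not be read as replication between mice alone.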

Additional observations from a re-analysis of the deposited data

Results flagged for a closer look

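In groups of 4 mice, 32 sets of values were examined for a mouse standing far from the other 3. They were levels of named axoneme genes, and the shares and summed axoneme levels of ependymal-like, choroid plexus-like and ungated barcodes. Of the 32 sets 3 passed Dixon's critical value, each of them for a single gene. Chance gives about 1 in 20. In ependymal-like nuclei of Tsc2 mut/mut mouse 4, Drc7 was at 0 CPM and Hydin at 299 CPM, each the lowest of its group. That mouse's sum holds 10032 UMIs, so 1 UMI is worth 99.7 CPM there. In choroid plexus-like nuclei of Tsc2 wt/wt mouse 3, Cfap20 was at 222 CPM, the highest of its group, from a single nucleus of 22483 UMIs.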

How the results depend on the processing

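Of the values of single named genes under the alternatives, 1672 kept their direction and side of the threshold, 29 lost significance and 2 reversed. Genes called in neither fit count among the 1672, and settings in which a gene was not tested are left out. Counts of genes called stayed close to the main fit in 246 cases and moved in 70. Differences in share by genotype kept direction and side of the threshold in 29 cases and reversed in 5. The 2 reversed gene values came from choroid plexus-like nuclei against nuclei in neither class. They were those of Dnaic1 (−1.85 without the deepest 5% of barcodes) and Dnah7b (0.024 with at least 200 genes per barcode). In that comparison 42 of 77 axoneme genes tested were called higher with no filter on low counts, beside 3200 of 23568 genes. The counts of axoneme genes were 16 with at least 500 genes, 4 without the deepest 5% and 15 under 20% mitochondrial UMIs. With no filter 11 were called lower. Between the ciliated classes 28 were higher with at least 500 genes and 19 without the deepest 5%, where 0 were lower. The numbers tested and the shares of all genes called are not given here for the fits with at least 500 genes. The same holds for the ciliated classes without the deepest 5%, so these counts are not read as a result. The stricter filters tested fewer axoneme genes. In choroid plexus-like nuclei against nuclei in neither class, 4 of 12 were called higher without the deepest 5%, against 26 of 29 in the main fit. Over all genes the calls were 337 of 9417 against 2869 of 9559. The class also shrank under that setting. Its mean share of kept barcodes was 0.160%, against 0.949% before, among Tsc2 wt/wt mice. Tsc2 mut/mut mice had 0.522% against 2.14%. The cause of the lower counts was not tested. Leaving out 1 mouse gave 50 to 62 axoneme genes higher in ependymal-like nuclei, 23 to 35 in choroid plexus-like nuclei, and 40 to 45 higher with 3 to 6 lower between the classes. Over all genes these fits called 1626 to 2708 of 9954 to 10538 higher in ependymal-like nuclei. In choroid plexus-like nuclei they called 2737 to 3153 of 9505 to 9858 higher. Between the classes 865 to 1454 were higher and 949 to 1533 lower, of 2089 to 2762 genes. Without the mice under 30000 UMIs in a class, the counts of axoneme genes were 66, 35, 51 and 5. The shares of all genes are not given for that alternative. It was chosen after seeing the data, as were gates at 20 and 80 UMIs per 10000. Scaling moved the split of all genes in ependymal-like nuclei from 2460 higher and 4133 lower to 4493 and 2250 with library totals and 1516 and 5061 with DESeq2, and in choroid plexus-like nuclei from 2869 and 4328 to 3359 and 3673 and to 1566 and 5853. By genotype 0 axoneme genes were called under each alternative that tested any. In choroid plexus-like nuclei without the deepest 5% none could be tested. Calls among all genes in ependymal-like nuclei were 19 with at least 500 genes and 36 with gates at 80, and leaving out 1 mouse gave 0 to 105 there and 1 to 122 in choroid plexus-like nuclei. The difference in the share of ependymal-like nuclei (0.0793 percentage points) was −0.100 with at least 200 genes and −0.142 to 0.431 leaving out 1 mouse. That of choroid plexus-like nuclei (1.19) was 0.391 to 1.67 leaving out 1 mouse, 0.0749 with at least 200 genes and 12.5 with at least 500. Mice of the 2 genotypes share replicate numbers 1 to 4, but correlations of same-numbered deviations lay between −0.26 and 0.05 in ependymal-like and −0.05 and 0.06 in choroid plexus-like nuclei, so the numbers were not taken as pairs. With the replicate block 0 axoneme genes were called, 0 of all genes in ependymal-like and 63 in choroid plexus-like nuclei, and the shares differed by 0.0793 (exact permutation p = 0.875) and 1.19 (exact permutation p = 0.375).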
